A study of Mus musculus with 18 samples.

Results

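Toll-like receptors (TLRs) are the germline-encoded sensors with which dendritic cells (DCs) detect microbes. The 10 described here were taken by symbol, Tlr2, Tlr3, Tlr4, Tlr5, Tlr7, Tlr8, Tlr9, Tlr11, Tlr12 and Tlr13, from the 54232 genes of the read count table, and Tlr1 and Tlr6, the partners of Tlr2, are given with the accessory genes. All 10 were present once, and all 10 passed the filter on low counts together with 17074 genes in all. The count data came from 18 libraries of mouse intestinal DCs on the C57BL/6J background. Each library was labelled with the genotype CD11a KO, CD11a being the integrin alpha chain encoded by Itgal, so that no wild-type library was compared. Itgal RNA was counted in every library, at 6.45 to 26.65 CPM (counts per library scaled as described below), and without wild-type libraries this does not check the label. Every group held 3 libraries, and the 6 groups were CD11b+, CD103+ and Double+ DCs from the small intestinal lamina propria (LP) and the same 3 subsets from the intestinal lymph nodes (LN). Double+ cells, which carry both markers, are called double-positive below. The labels of these libraries give no age and no treatment, and do not say whether the numbered replicates are separate animals or pools. The p-values therefore measure the spread between these samples, which may be technical.

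TLR2, TLR4 and TLR5 act at the cell surface, where they recognise bacterial lipoproteins, lipopolysaccharide and flagellin. TLR3, TLR7, TLR8, TLR9, TLR11, TLR12 and TLR13 act in endosomes, to which the chaperone UNC93B1 carries them. TLR3 binds double-stranded RNA, TLR7 single-stranded RNA, TLR9 unmethylated CpG DNA and TLR13 a stretch of bacterial ribosomal RNA, whereas TLR11 and TLR12 bind the profilin of apicomplexan parasites. The ligand of mouse TLR8 is less well defined. All of them signal through the adaptor MyD88 except TLR3, which uses TRIF, and TLR4, which uses both. Conventional type 1 DCs (cDC1), the CD103+ CD11b- cells of the gut, are known for high Tlr3 and Tlr11, and type 2 DCs (cDC2) for a wider set of surface receptors.

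The total count per library ranged from 23574292 to 46901985. All 6 DC markers were present in every group, with a summed level between 22260 and 92050 CPM (counts scaled to library size, with the library sizes corrected by the trimmed mean of M-values, TMM). LN CD103+ libraries were the lowest, at 22260 to 23050 CPM against 76000 to 80840 CPM in LP CD103+ DCs. Of these 6 markers 4 were called lower in LN than in LP CD103+ DCs and 0 higher, beside 15.1% and 19.8% of all genes. The 6 cDC1 markers summed to 5184 to 5375 CPM in LP CD103+ DCs and to 451 to 701 CPM in the libraries of the other 5 groups, LN CD103+ DCs included (528 to 557 CPM). The cDC2 markers summed to 2630 to 3902 CPM in LP CD11b+ and 3105 to 3754 CPM in LP double-positive DCs, but to 43.0 to 84.6 CPM in LP CD103+ DCs. In the LN they summed to 775 to 1207 CPM in CD11b+, 198 to 244 CPM in double-positive and 43.6 to 52.3 CPM in CD103+ DCs. From LP to LN, 4 of 6 were called lower in CD11b+ and 5 of 6 in double-positive DCs, with 0 higher. The shares of all genes called lower were 4.93% and 13.6%. Itgae, which encodes CD103, averaged 1337 CPM in LP CD103+ DCs and 35.4 CPM in LN CD103+ DCs, so the labelled marker was low by RNA in the LN. The 10 markers of DC maturation summed to 1008 to 2598 CPM in LP libraries, 3486 to 5252 CPM in LN CD11b+ DCs and 17030 to 20080 CPM in the other LN libraries. T cell markers, 10 of 10 at 10 CPM or more, summed to 611 to 1259 CPM in the LN libraries against 9.83 to 65.1 CPM in the LP libraries. LP CD11b+ replicate 3 stood apart from its group in markers of macrophages (3976 CPM against 1735 and 2326), of monocytes and neutrophils (162 CPM against 53.3 and 64.2) and of epithelium (230 CPM against 40.1 and 76.2). LN CD11b+ replicate 3 and LN double-positive replicate 3 held both Xist and Ddx3y. The other LN libraries held mainly Xist and the LP libraries Ddx3y. Sex and tissue therefore cannot be told apart in any comparison of LN with LP, for the X-linked Tlr7, Tlr8 and Tlr13 or for other genes. In bulk libraries such as these, fewer cells of a type and less RNA per cell cannot be told apart.

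LP CD103+ DCs held far more TLR transcript than any other group, and the excess lay in 3 endosomal receptors, Tlr12, Tlr3 and Tlr11. Levels were divided by the length of each gene's annotated exons so that genes could be compared with each other. On this scale of CPM per kilobase, the 10 receptors summed to 623 ± 11.8 (SD, n = 3) in LP CD103+ DCs. The sum was 62.3 ± 3.61 in LP CD11b+, 69.9 ± 3.46 in LP double-positive, 67.0 ± 11.9 in LN CD11b+, 58.1 ± 9.15 in LN CD103+ and 81.2 ± 10.8 in LN double-positive DCs. The ranges of these other 5 groups overlapped in part, from 48.7 to 93.1 CPM per kilobase over all their libraries. In LP CD103+ DCs Tlr12 made up 43.2% of the summed level, Tlr3 29.6% and Tlr11 23.4%, and the remaining 7 receptors shared what was left, with Tlr13 at 3.41%. Among the 10, the leading receptor varied between the other groups. Tlr13 ranked first in LP CD11b+ (25.8%) and LP double-positive DCs (36.8%), Tlr2 in LN CD11b+ DCs (28.2%), Tlr12 in LN CD103+ DCs (34.6%) and Tlr11 in LN double-positive DCs (39.2%). Tlr4, Tlr5, Tlr8 and Tlr9 stayed under 5% of the sum in all 6 groups.

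**Figure D1:**
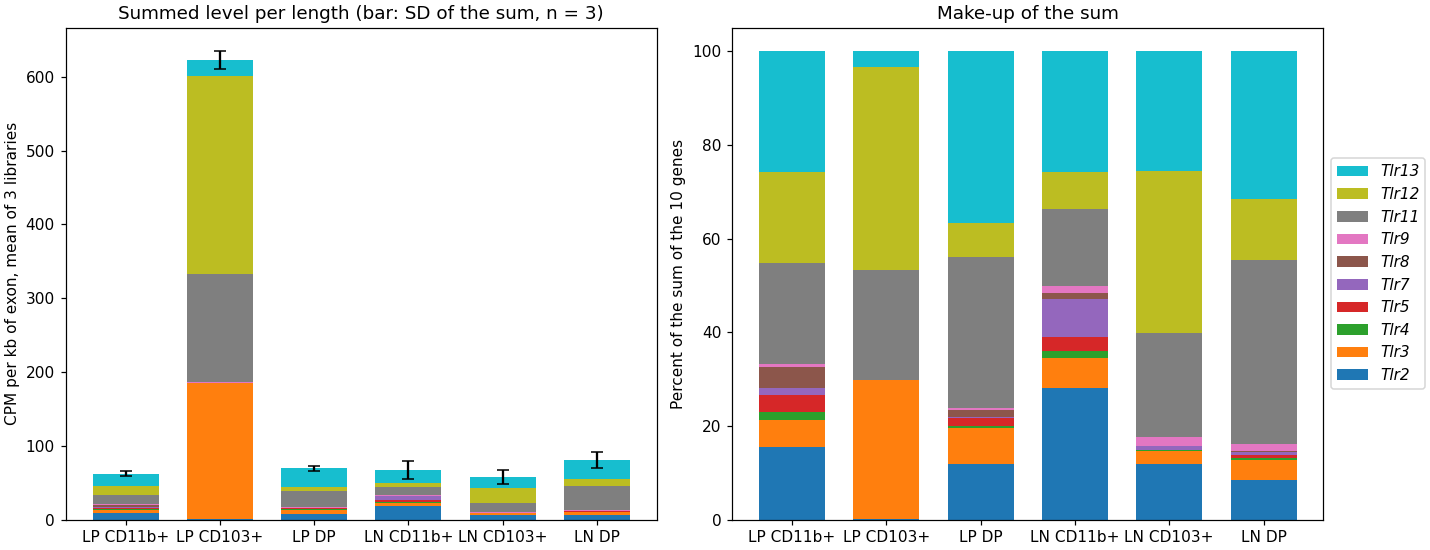
Stacked bars of the 10 receptors in the 6 groups, as mean CPM per kilobase of annotated exon (left, error bars are the SD of the sum over 3 libraries) and as percent of the group's sum (right). The LP CD103+ bar reaches 623 CPM per kilobase and is made almost wholly of Tlr12, Tlr3 and Tlr11, while the other 5 bars lie between 58.1 and 81.2.

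Tlr3, on chromosome 8 (GRCm38, 45395665 to 45411080, minus strand), spanned 6.58 to 974 CPM. Its level was 971, 974 and 930 CPM in the LP CD103+ libraries, 18.4, 16.2 and 20.3 CPM in LP CD11b+ and 30.1, 27.8 and 26.0 CPM in LP double-positive DCs. In the LN the libraries had 21.8, 20.2 and 24.6 CPM in CD11b+, 9.08, 10.3 and 6.58 CPM in CD103+ and 17.7, 16.5 and 21.4 CPM in double-positive DCs. Every LP CD103+ library lay far above all others, and every LN CD103+ library lay below all others, so the same subset label carried the highest and the lowest Tlr3. In LP, Tlr3 was 52.4-fold higher in CD103+ than in CD11b+ DCs (log2 5.71, SE 0.16, edgeR adjusted p = 1.4e-13) and 34.2-fold higher than in double-positive DCs (adjusted p = 3.2e-13). Between LN and LP the CD103+ difference was log2 -6.79 (SE 0.17, adjusted p = 2.7e-14), with no call in CD11b+ (0.28, SE 0.13, adjusted p = 0.11) or double-positive DCs (-0.60, SE 0.13, under the fold limit of 2). Within the LN, CD103+ DCs had 2.56-fold less Tlr3 than CD11b+ DCs (adjusted p = 4.5e-07) and 2.14-fold less than double-positive DCs (adjusted p = 2.7e-05). That last difference was log2 1.10 (SE 0.14) and fell under the fold limit without LN CD103+ replicate 3 (0.94) or LN double-positive replicate 3 (0.99). The gene shares 381 exon bases with Gm45542 on the opposite strand, which reached 0.122 CPM at most.

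Tlr12, an intron-less receptor gene on chromosome 4 (128615443 to 128618619, minus strand), had 808, 886 and 873 CPM in the LP CD103+ libraries, 32.4, 31.3 and 51.8 CPM in LP CD11b+ and 18.1, 16.6 and 12.4 CPM in LP double-positive DCs. The LN libraries had 15.5, 15.2 and 19.2 CPM in CD11b+, 69.2, 67.9 and 54.5 CPM in CD103+ and 32.2, 33.8 and 35.1 CPM in double-positive DCs. CD103+ DCs were thus the highest group in both tissues, without overlap with any other group of their tissue. The difference from CD11b+ DCs was log2 4.47 (SE 0.19, adjusted p = 3.2e-11) in LP and 1.94 (SE 0.18, adjusted p = 1.0e-07) in the LN. From LP to LN Tlr12 was 13.4-fold lower in CD103+ DCs (log2 -3.74, SE 0.19, adjusted p = 3.2e-11), lower in CD11b+ DCs (-1.21, SE 0.18, adjusted p = 4.6e-05) and higher in double-positive DCs (1.10, SE 0.18, adjusted p = 4.6e-05). The CD11b+ call rested on LP CD11b+ replicate 3, the highest library of its group at 51.8 CPM, without which the difference was -0.94. The double-positive value was 0.96 without LP double-positive replicate 3 and 0.93 when libraries were scaled by total counts, both under the fold limit. Double-positive DCs had less Tlr12 than CD11b+ DCs in LP (-1.30, SE 0.18, adjusted p = 1.1e-04, or 0.010 and not called when only these libraries were fitted) and more in the LN (1.02, SE 0.18, adjusted p = 1.8e-04). This LN value lay close to the fold limit, being 0.65 with total counts and 0.93 to 0.97 without LN CD11b+ replicate 1 or 2 or LN double-positive replicate 3.

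Tlr11, on chromosome 14 (50357914 to 50363663, plus strand), had 492, 476 and 466 CPM in the LP CD103+ libraries, 47.0, 47.7 and 36.2 CPM in LP CD11b+ and 78.4, 74.7 and 69.1 CPM in LP double-positive DCs. In the LN, CD11b+ libraries had 32.3, 37.9 and 38.1 CPM, CD103+ libraries 48.0, 46.4 and 32.1 CPM and double-positive libraries 97.7, 90.6 and 125 CPM. The highest subset was therefore CD103+ in LP and double-positive in the LN, in each case without overlap. Tlr11 was 10.9-fold higher in CD103+ than in CD11b+ DCs of the LP (log2 3.45, SE 0.16, adjusted p = 6.2e-11), whereas in the LN these subsets overlapped and differed by 0.23 (SE 0.15, adjusted p = 0.22). LN double-positive DCs had 2.89-fold more than LN CD11b+ DCs (adjusted p = 4.5e-07) and 2.47-fold more than LN CD103+ DCs (adjusted p = 7.2e-06). Between LN and LP, Tlr11 was 11.3-fold lower in CD103+ DCs (log2 -3.50, SE 0.16, adjusted p = 1.1e-11), while CD11b+ DCs differed by -0.27 (adjusted p = 0.16) and double-positive DCs by 0.49, under the fold limit. The cDC1 marker sum moved in the same direction as these 3 receptors, with 5 of 6 cDC1 markers called lower in LN than in LP CD103+ DCs, where 15.1% of all genes tested were. DC maturation markers moved the other way, with 8 of 10 called higher beside 19.8% of all genes. The part of either in the receptor differences was not tested.

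Because Tlr3, Tlr11 and Tlr12 shared their peak in LP CD103+ DCs, the sequence upstream of their RefSeq start sites (GRCm38.p6) is shown, with matches to AANNGAAA on either strand in capitals, the core letters bound by interferon regulatory factors such as the cDC1 factor IRF8. Tlr11 and Tlr12 are given by their 250 bases before the start and Tlr3 by 30 bases around its match, which ends 51 bases before the start. All are written 5′ to 3′ on the strand of the gene.
Tlr11, chr14:50357664-50357913, plus strand: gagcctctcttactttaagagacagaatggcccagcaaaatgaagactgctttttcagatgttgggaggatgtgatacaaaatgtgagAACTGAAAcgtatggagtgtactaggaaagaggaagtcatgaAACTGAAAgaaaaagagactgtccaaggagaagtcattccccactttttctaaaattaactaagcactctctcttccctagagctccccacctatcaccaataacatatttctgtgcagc
Tlr12, chr4:128618620-128618869, minus strand: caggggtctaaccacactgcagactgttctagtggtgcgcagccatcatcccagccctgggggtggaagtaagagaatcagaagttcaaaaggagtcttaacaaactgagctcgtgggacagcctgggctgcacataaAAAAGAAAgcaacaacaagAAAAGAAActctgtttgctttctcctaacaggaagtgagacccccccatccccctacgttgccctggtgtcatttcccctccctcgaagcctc
Tlr3, chr8:45410421-45410450, minus strand: aagtgaatggcTTTCACTTtgtttagacac
The Tlr11 and Tlr12 windows held 2 matches each and the Tlr3 window 1. Of the 250 bases of the Tlr3 window, 178 lie in annotated exon, but 0 of the 30 bases shown do. Of all 32851 promoter windows of this length, 21.3% held the pattern, and so did the window of Tlr2 (2 matches), although 159 of its 250 bases lie in annotated exon. Tlr2 is 1 of 3 receptors with their lowest group mean in LP CD103+ DCs, beside Tlr4, for which no window was found, and Tlr5. Windows were found for 8 of the 10 receptors, and those of Tlr5, Tlr8, Tlr9 and Tlr13 held no match. The AP-1 pattern TGANTCA, held by 6.75% of windows, occurred only in that of Tlr9 (1 match), and the PU.1-type pattern GAGGAAGT, held by 2.44%, only in that of Tlr11 (1 match, not overlapping the capitals). Binding of any factor to these matches, and their part in the shared peak, was not tested.

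**Figure D2:**
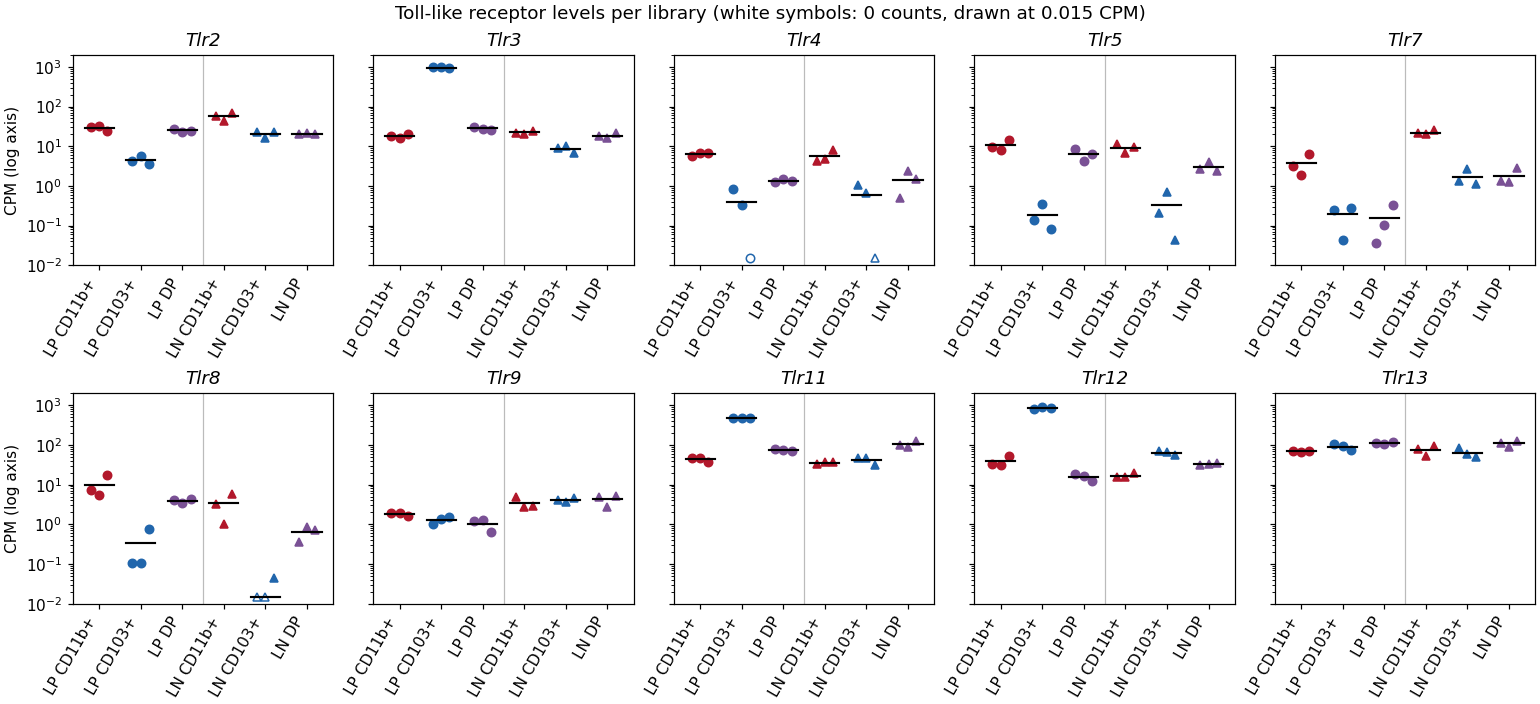
CPM of each receptor in the 18 libraries on a log axis, 1 panel per gene, with LP libraries as circles, LN libraries as triangles, CD11b+ in red, CD103+ in blue, double-positive (DP) in purple and group means as black lines; white symbols mark a count of 0 and are drawn at a fixed low position. Tlr3, Tlr11 and Tlr12 stand at 466 to 974 CPM in LP CD103+ DCs and at most at 125 CPM elsewhere, whereas Tlr2, Tlr4, Tlr5 and Tlr8 are low in LP CD103+ DCs.

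Among the surface receptors, Tlr2 (chromosome 3, 83836272 to 83841767, minus strand) ran against the 3 receptors above. It had 4.35, 5.66 and 3.47 CPM in LP CD103+, 31.1, 32.5 and 23.9 CPM in LP CD11b+ and 27.57, 23.01 and 24.59 CPM in LP double-positive DCs. The LN libraries had 57.0, 44.0 and 69.9 CPM in CD11b+, 22.98, 16.45 and 22.53 CPM in CD103+ and 19.9, 22.1 and 20.0 CPM in double-positive DCs. LP CD103+ DCs lay below and LN CD11b+ DCs above every other library, and the LN CD103+ and double-positive groups overlapped. CD103+ DCs had 6.43-fold less Tlr2 than CD11b+ DCs in LP (log2 -2.68, SE 0.20, adjusted p = 2.2e-08) and 2.76-fold less in the LN (-1.46, SE 0.19, adjusted p = 6.2e-06). Tlr2 rose 4.55-fold from LP to LN in CD103+ DCs (2.19, SE 0.20, adjusted p = 7.2e-08). In CD11b+ DCs the libraries of LP and LN did not overlap either, and the difference of 0.97 (SE 0.19, adjusted p = 6.8e-04) lay just under the fold limit. It passed that limit with total counts (1.09) and without LP CD11b+ replicate 1 (1.02) or 2 (1.05) or LN CD11b+ replicate 2 (1.12). Double-positive DCs differed by -0.28 (SE 0.19, adjusted p = 0.22).

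Tlr4 and Tlr5 were low and were led by CD11b+ DCs in both tissues. Tlr4 (chromosome 4, 66827584 to 66930284, plus strand) had 5.64, 6.70 and 6.73 CPM in LP CD11b+, 0.849, 0.323 and 0 CPM in LP CD103+ and 1.23, 1.46 and 1.32 CPM in LP double-positive DCs. The LN libraries had 4.23, 4.68 and 8.06 CPM in CD11b+, 1.08, 0.675 and 0 CPM in CD103+ and 0.508, 2.37 and 1.47 CPM in double-positive DCs. The counts of 0 allow up to 0.122 CPM in the LP and 0.131 CPM in the LN library, as 3 counts of the scaled total and for counting error only. CD11b+ libraries lay above all others of their tissue. CD103+ DCs were lower than CD11b+ DCs by log2 -4.00 in LP (SE 0.89, adjusted p = 0.0019) and -3.26 in the LN (SE 0.87, adjusted p = 0.0044). Both calls were lost without single libraries, the LP call without LP CD103+ replicate 2 (adjusted p = 0.012) and the LN call without LN CD11b+ replicate 3 (0.016), LN CD103+ replicate 2 (0.016) or LN CD103+ replicate 3 (0.010), and the LP difference was -5.05 without LP CD103+ replicate 1 and the LN difference -4.06 without LN CD103+ replicate 1. No difference of Tlr4 between LN and LP was called, the 3 values being -0.17, 0.57 and 0.12 in CD11b+, CD103+ and double-positive DCs (SE 0.76 to 0.90).

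Tlr5 (chromosome 1, 182954788 to 182976044, plus strand) had 9.41, 8.09 and 14.02 CPM in LP CD11b+, 0.142, 0.344 and 0.0816 CPM in LP CD103+ and 8.31, 4.17 and 6.32 CPM in LP double-positive DCs. In the LN it had 11.1, 6.88 and 9.69 CPM in CD11b+, 0.207, 0.717 and 0.0438 CPM in CD103+ and 2.73, 3.91 and 2.42 CPM in double-positive DCs. CD103+ libraries were below 1 CPM in both tissues and overlapped with no other group of their tissue. In LP the difference of CD103+ from CD11b+ DCs was log2 -5.64 (SE 0.61, adjusted p = 1.4e-06) and that of double-positive from CD103+ DCs 4.89 (SE 0.60, adjusted p = 6.1e-06). In the LN the same differences were -4.81 (SE 0.59, adjusted p = 3.3e-06) and 3.21 (SE 0.58, adjusted p = 5.8e-04). They rest on 1 to 17 counts per CD103+ library, and without the replicate 2 of each CD103+ group they were -6.48, 5.73, -6.15 and 4.53 in the same order. LN double-positive DCs held less Tlr5 than LN CD11b+ DCs by 1.60 log2 units without passing the threshold (SE 0.49, adjusted p = 0.013), and the call was made by DESeq2 (adjusted p = 5.3e-04) and with other filters. Between LN and LP no subset was called for Tlr5, with differences of -0.19, 0.64 and -1.05 in CD11b+, CD103+ and double-positive DCs.

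Macrophage markers, like Tlr4, Tlr5 and Tlr8, were highest in CD11b+ and lowest in CD103+ DCs, with 10 of 10 at 1 CPM or more in CD11b+ DCs of both tissues. They summed to 1735 to 3976 CPM in LP CD11b+, 885 to 1397 CPM in LN CD11b+, 633 to 676 CPM in LP double-positive, 276 to 336 CPM in LN double-positive and 35.4 to 123 CPM in the CD103+ libraries. Fcgr1, which encodes the macrophage antigen CD64, averaged 9.79 CPM in LP CD11b+ and 5.28 CPM in LN CD11b+ DCs and had no count in LN CD103+ DCs. Monocyte and neutrophil markers were also highest in CD11b+ DCs, with sums of 53.3 to 162 CPM in LP and 89.7 to 106 CPM in the LN. Libraries of the other groups had 0.814 to 45.8 CPM. The part of macrophage, monocyte and neutrophil RNA in the levels of Tlr4, Tlr5 and Tlr8 was not tested.

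Tlr8 (chromosome X, 167242696 to 167264329, minus strand) had 7.22, 5.42 and 17.2 CPM in LP CD11b+, 0.106, 0.108 and 0.775 CPM in LP CD103+ and 4.02, 3.46 and 4.32 CPM in LP double-positive DCs. In the LN it had 3.26, 1.01 and 5.93 CPM in CD11b+ and 0.352, 0.838 and 0.713 CPM in double-positive DCs, and the CD103+ libraries held 0, 0 and 1 count. LP CD11b+ replicate 3, which had the highest sum of macrophage markers, was also the library with the most Tlr8. In LP, CD103+ DCs were lower than CD11b+ DCs by log2 -5.00 (SE 0.79, adjusted p = 8.1e-05), or -4.35 without that library and -6.48 without LP CD103+ replicate 3, and double-positive DCs were higher than CD103+ DCs by 3.66 (SE 0.76, adjusted p = 0.0011), or 5.14 without LP CD103+ replicate 3. Against the single count in LN CD103+ DCs, the ratio was 238 for LN CD11b+ DCs (95% interval 42.4 to 9437), 45.03 for LN double-positive DCs (7.71 to 1815) and 19.2 for LP CD103+ DCs (3.17 to 786). These intervals are exact and cover counting error only. By edgeR the first of these differences was called (adjusted p = 3.2e-05), the second was called (adjusted p = 0.0069) but lost without any 1 of 5 of the 6 libraries (adjusted p = 0.018 to 0.032), and the third was not (adjusted p = 0.016), although DESeq2 called it (0.0031). The fitted value of the first, log2 -7.51, depends on the prior count. It was -6.87 without LN CD11b+ replicate 3 and -9.61 without LN CD103+ replicate 3. In double-positive DCs Tlr8 was 6.16-fold lower in LN than in LP (log2 -2.62, SE 0.71, adjusted p = 0.0044), a call lost without any 1 of 5 of the 6 libraries (adjusted p = 0.010 to 0.024). In CD11b+ DCs the LN and LP libraries overlapped and differed by -1.55 (SE 0.65, adjusted p = 0.070), or by -0.90 without LP CD11b+ replicate 3. The LN double-positive against CD11b+ difference of -2.41 (SE 0.71, adjusted p = 0.011) was called only in other settings, among them the fit with the replicate number within each tissue as a block (-2.16, adjusted p = 0.0092).

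Tlr7 (chromosome X, 167304929 to 167330558, minus strand), whose product senses single-stranded RNA, was the only receptor called in the same direction in all 3 comparisons of LN with LP. In LP it had 3.12, 1.87 and 6.44 CPM in CD11b+, 0.248, 0.0430 and 0.286 CPM in CD103+ and 0.0372, 0.102 and 0.321 CPM in double-positive DCs. In the LN it had 21.5, 19.8 and 25.2 CPM in CD11b+, 1.33, 2.62 and 1.10 CPM in CD103+ and 1.37, 1.22 and 2.90 CPM in double-positive DCs. All LN libraries lay above all LP libraries of their subset, and LN CD11b+ DCs lay above every other library. The increase was 5.80-fold in CD11b+ (log2 2.54, SE 0.54, adjusted p = 0.0015), 9.42-fold in CD103+ (3.24, SE 0.68, adjusted p = 5.3e-04) and 11.5-fold in double-positive DCs (3.52, SE 0.69, adjusted p = 3.3e-04). They rest on few counts in LP, 1 to 9 per library in CD103+ and double-positive DCs. Without LP double-positive replicate 3 the double-positive value was 4.60, without LP CD103+ replicate 2 the CD103+ value was 2.62, and without LP CD11b+ replicate 3 the CD11b+ value was 3.15. Within LP, CD11b+ DCs exceeded CD103+ DCs by 4.42 log2 units (SE 0.67, adjusted p = 5.8e-05) and double-positive DCs by 4.59 (SE 0.69, adjusted p = 2.4e-04). As CD103+ minus CD11b+, the former was -3.81 without LP CD11b+ replicate 3 and -3.82 without LP CD103+ replicate 2. As double-positive minus CD11b+, the latter was -3.98 without LP CD11b+ replicate 3 and -5.67 without LP double-positive replicate 3.

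Tlr9 (chromosome 9, 106222598 to 106226883, plus strand), the CpG DNA receptor, was low everywhere and stayed between 0.643 and 5.23 CPM. In LP it had 1.98, 1.94 and 1.61 CPM in CD11b+, 1.03, 1.38 and 1.55 CPM in CD103+ and 1.19, 1.29 and 0.643 CPM in double-positive DCs. In the LN it had 4.90, 2.69 and 2.83 CPM in CD11b+, 4.07, 3.59 and 4.60 CPM in CD103+ and 4.96, 2.69 and 5.23 CPM in double-positive DCs. Each LN library had more Tlr9 than every LP library, while the 3 LN groups overlapped. The increase was 3.09-fold in CD103+ (log2 1.63, SE 0.33, adjusted p = 4.3e-04) and 4.10-fold in double-positive DCs (2.04, SE 0.34, adjusted p = 6.6e-05), and the CD11b+ difference was 0.92 (SE 0.33, adjusted p = 0.035). No difference between subsets was called for Tlr9 in either tissue.

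Tlr7 and Tlr9 are also used by B cells and plasmacytoid DCs (pDCs). B cell markers were higher in the LN, with 8, 7 and 8 of 8 tested markers called in CD11b+, CD103+ and double-positive DCs, beside 10.3%, 19.8% and 18.6% of all genes. The 9 listed markers summed to 123 to 171 CPM in LN CD11b+ against 39.1 to 46.4 CPM in LP CD11b+, 40.2 to 52.7 against 14.2 to 20.7 CPM in CD103+ and 57.0 to 68.9 against 8.83 to 9.69 CPM in double-positive DCs, where Pax5 had no count in LP. By their sum, the 6 pDC markers followed this order only in double-positive DCs. They summed to 58.7 to 84.1 CPM in LN CD11b+ against 67.1 to 136 CPM in LP CD11b+, 52.6 to 70.6 against 120 to 146 CPM in CD103+ and 43.0 to 58.0 against 26.2 to 34.6 CPM in double-positive DCs. Among the 4 pDC markers tested, 3, 2 and 3 were called higher in the LN and 1, 1 and 0 lower, where 4.93%, 15.1% and 13.6% of all genes were lower. LN CD11b+ replicate 3 and LN double-positive replicate 3, the libraries with both Xist and Ddx3y, had the highest Tlr7 of their groups. The part of B cells, pDCs and sex in these increases was not tested.

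Tlr13 (chromosome X, 106143204 to 106160493, plus strand), the receptor for bacterial ribosomal RNA, varied least between groups. Group means ran from 64.0 ± 17.6 CPM in LN CD103+ to 111 ± 7.01 CPM in LP double-positive DCs (SD, n = 3), through 69.1 ± 1.54 in LP CD11b+, 74.5 ± 19.9 in LN CD11b+, 91.5 ± 15.0 in LP CD103+ and 110 ± 19.9 in LN double-positive DCs. Each group overlapped with its neighbour in this order, so neighbours did not differ beyond their spread. None of the 9 comparisons called it, the largest differences being 0.78 between LN double-positive and CD103+ DCs (SE 0.20, adjusted p = 0.0087, under the fold limit) and 0.68 between LP double-positive and CD11b+ DCs (SE 0.20, adjusted p = 0.032). The first of these was 1.03 and called without LN CD103+ replicate 1.

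The question addressed by the comparison of LN with LP was which receptors differ between DCs of a subset in the tissue and in its draining nodes. A receptor was called at an adjusted p under 0.01 and a fold change over 2. In CD11b+ DCs 1 of the 10 receptors was called higher in the LN (Tlr7) and 1 lower (Tlr12), where 10.3% and 4.93% of all genes tested were called higher and lower. The LP and LN libraries of 4 receptors did not overlap in CD11b+ DCs, as for 50.8% of all genes. In CD103+ DCs 3 were higher (Tlr2, Tlr7, Tlr9) and 3 lower (Tlr3, Tlr11, Tlr12), beside 19.8% and 15.1% of all genes, and 7 did not overlap, beside 65.6% of all genes. In double-positive DCs 3 were higher (Tlr7, Tlr9, Tlr12) and 1 lower (Tlr8), beside 18.6% and 13.6% of all genes, and 8 did not overlap, beside 66.9%. The median difference of the 10 receptors was -0.03, 0.02 and 0.06 on the log2 scale, next to 0.03, 0.04 and 0.07 for all genes. T cell markers, at least 9 of 10 of them called higher in the LN of each subset beside these 10.3% to 19.8% of all genes, moved with these comparisons, and their part was not tested. Sex, by Xist and Ddx3y, also differed between LP and LN and cannot be told apart from tissue for any receptor. Without LP CD11b+ replicate 3 the CD11b+ count was 1, and without LP double-positive replicate 3 the double-positive count was 2. With total counts in place of TMM, which moved the median of all genes by 0.14, -0.21 and -0.17, 2 receptors were called higher in CD11b+ and 2 in double-positive DCs, with 1 lower in each.

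**Figure D3:**
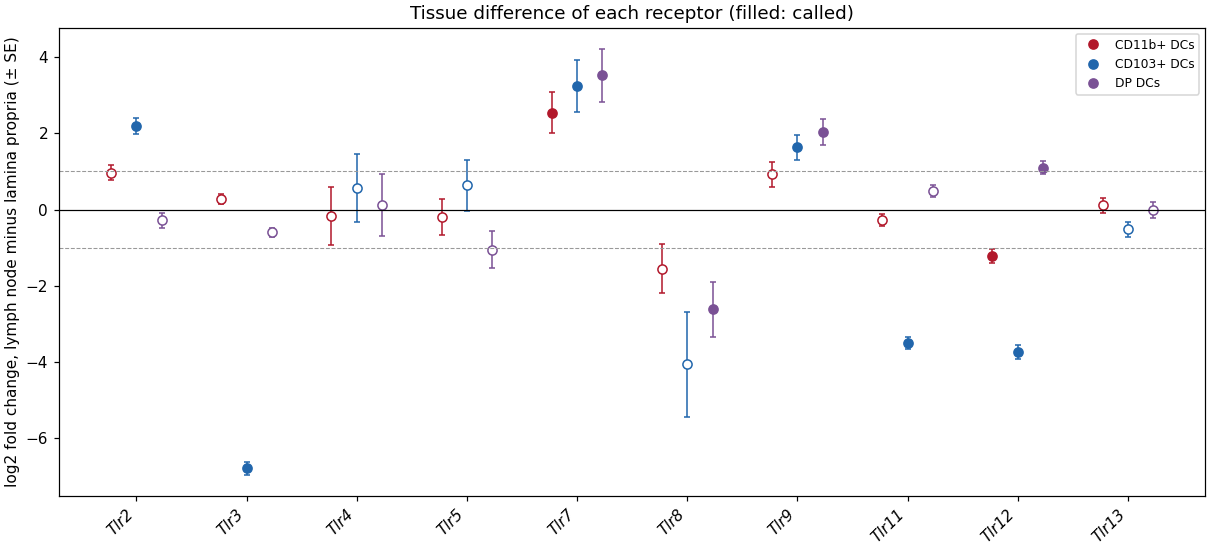
Log2 fold change (LN minus LP, with SE) of each receptor in CD11b+, CD103+ and double-positive (DP) DCs; filled symbols were called and dashed lines mark a fold change of 2 in each direction. Tlr3, Tlr11 and Tlr12 reach -6.79, -3.50 and -3.74 in CD103+ DCs, while Tlr7 lies between 2.54 and 3.52 in all 3 subsets.

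Whether the LN and LP difference itself depended on the subset was tested with an F test over both interaction terms, which called 4 of the 10 receptors beside 31.5% of all genes. These were Tlr3 (adjusted p = 2.1e-12), Tlr11 (1.7e-09), Tlr12 (2.2e-09) and Tlr2 (7.7e-06). The LN and LP difference in CD103+ DCs was lower than that in CD11b+ DCs by 7.07 log2 units for Tlr3 (SE 0.20), 3.23 for Tlr11 (SE 0.21) and 2.53 for Tlr12 (SE 0.25), and higher by 1.22 for Tlr2 (SE 0.27). Between double-positive and CD11b+ DCs the difference was called for Tlr12 (2.31, SE 0.25) and Tlr2 (-1.24, SE 0.27). For these single terms the fold limit of 2 also applied. Tlr3 (-0.87, SE 0.19, edgeR adjusted p = 0.0022) and Tlr11 (0.77, SE 0.21, adjusted p = 0.01) lay under it. For the other 6 receptors no dependence on the subset was detected, with adjusted p from 0.14 to 0.87, Tlr7 included (0.58). For Tlr4, Tlr5, Tlr7 and Tlr8 the SE of these interaction terms was 0.67 to 1.59, so that differences of several fold were not detectable.

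The comparison of subsets asked which receptors mark the CD11b+, CD103+ and double-positive cells within one tissue. These comparisons share groups with each other and with those of LN and LP, so their counts are not independent. In LP, CD103+ DCs had 3 receptors higher than CD11b+ DCs (Tlr3, Tlr11, Tlr12) and 5 lower (Tlr2, Tlr4, Tlr5, Tlr7, Tlr8), where 5.07% and 10.6% of all genes were called higher and lower. All 10 receptors had non-overlapping libraries in this comparison, as had 47.3% of all genes, and the median difference was -1.58 for the receptors and -0.04 for all genes. LP double-positive DCs were closest to LP CD11b+ DCs, with 0 receptors higher and 2 lower (Tlr7, Tlr12) by edgeR and by DESeq2, beside 1.14% and 3.67% of all genes, although 8 did not overlap (30.1% of all genes), 3 were higher at an unadjusted p under 0.05 and the median was -0.78. Tlr4, Tlr8 and Tlr9 were among those 8 without a call, at -2.25 (SE 0.81, adjusted p = 0.080, or 0.0012 and called when only these libraries were fitted), -1.34 (SE 0.64, adjusted p = 0.21) and -0.82 (SE 0.34, adjusted p = 0.13). Against LP CD103+ DCs, double-positive DCs had 3 receptors higher (Tlr2, Tlr5, Tlr8) and 3 lower (Tlr3, Tlr11, Tlr12), beside 8.1% and 5.52% of all genes, with 7 not overlapping (46.1% of all genes) and a median of 0.05.

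In the LN the arrangement of subsets was another one. LN CD103+ DCs had 1 receptor higher than LN CD11b+ DCs (Tlr12) and 6 lower (Tlr2, Tlr3, Tlr4, Tlr5, Tlr7, Tlr8), beside 10.2% and 15.6% of all genes. The libraries of 7 receptors did not overlap, beside 62.0% of all genes, and the median was -1.41 against -0.13 for all genes. LN double-positive DCs had 2 receptors higher than LN CD11b+ DCs (Tlr11, Tlr12) and 2 lower (Tlr2, Tlr7), beside 6.92% and 9.82% of all genes, with 7 not overlapping (55.4% of all genes) and a median of -0.86 against -0.08. Total counts moved the median of all genes by -0.37 in this comparison and by -0.43 between CD103+ and CD11b+ DCs, and gave 1 higher and 4 lower in the former. Compared with LN CD103+ DCs, double-positive DCs had 4 receptors higher (Tlr3, Tlr5, Tlr8, Tlr11) and 0 lower by edgeR and by DESeq2, beside 4.69% and 1.84% of all genes, with 1 lower at an unadjusted p under 0.05, 6 not overlapping (38.4% of all genes) and a median of 0.94 against 0.01. Without LN double-positive replicate 3 this last count was 2. Tlr2 was the same in both groups at 20.6 CPM, and Tlr12 was lower in double-positive DCs by 0.92 log2 units (SE 0.17, adjusted p = 7.8e-04), under the fold limit, or by 1.02 and called without LN CD103+ replicate 3.

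**Figure D4:**
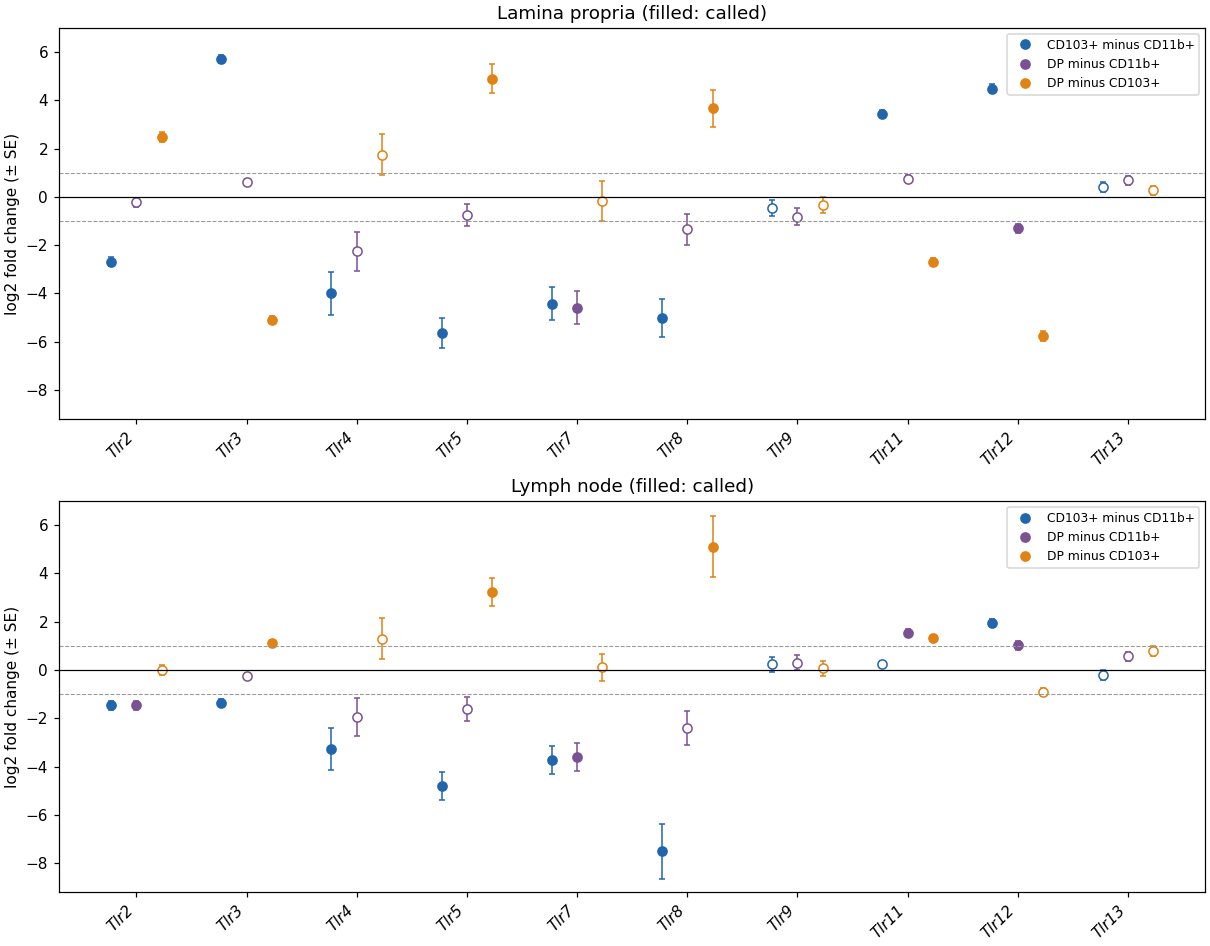
Log2 fold change with SE of each receptor for the 3 comparisons of subsets in LP (top) and LN (bottom), with filled symbols for called values and dashed lines at a fold change of 2; DP is double-positive. In LP Tlr3, Tlr11 and Tlr12 lie at 5.71, 3.45 and 4.47 for CD103+ against CD11b+ DCs, and in the LN at -1.36, 0.23 and 1.94.

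The genes most like each receptor were named by Pearson's r of log2 CPM over the 18 libraries among 9711 genes, a description over libraries that share their groups. Tlr3 was most like Naaa (r = 0.987), itself on the cDC1 marker list, and Lrrc28 (0.985). Tlr12 was most like Dbn1 (0.977) and Ptdss1 (0.973), and Tlr11 most like Arap1 (0.946) and Synrg (0.939). Tlr2 was closest to Cd7 and Limd2 (both 0.966), Tlr4 to Mgat1 (0.920) and Cx3cr1 (0.913), and Tlr5 to Fgr (0.972) and Cxcr2 (0.971). Cxcr2 is itself on the monocyte and neutrophil marker list. Tlr8 was closest to Hcar2 (0.969) and Ms4a4a (0.960). Tlr7 was closest to Mzb1 (0.953) and Pou2af1 (0.949), which are known from B lineage cells and, for Mzb1, pDCs. Tlr13 had no close match, Nckap1l (0.811) and Dpp8 (0.809) being the nearest, and Tlr9 was too low for the rule.

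The co-receptors and accessory proteins of the TLRs moved in both directions between LP and LN. For this and the following lists, the shares of all genes called higher and lower in the LN were 10.3% and 4.93% in CD11b+, 19.8% and 15.1% in CD103+ and 18.6% and 13.6% in double-positive DCs. Of 11 accessory genes tested, 1 was called higher and 1 lower in CD11b+, 2 and 5 in CD103+ and 3 and 4 in double-positive DCs, with medians of -0.33, -0.70 and -0.51. Tlr1, the partner of Tlr2, rose from 13.5 to 36.4 CPM in CD103+ DCs (log2 1.44, SE 0.14, adjusted p = 1.0e-07) and from 39.7 to 88.8 CPM in double-positive DCs (1.16, SE 0.13, or 0.99 and not called with total counts), while the CD11b+ change from 56.8 to 104 CPM was under the fold limit. Tlr6, the other partner, was not called in any subset, but was in CD103+ DCs without LN CD103+ replicate 2 (-1.08, from -0.70). The lipopolysaccharide co-receptors of Tlr4 moved in opposite directions in all 3 subsets. Cd14 was lower in the LN by 2.55, 2.5 and 3.69 log2 units in CD11b+, CD103+ and double-positive DCs, and Ly96, which encodes MD-2, was higher by 1.84, 2.90 and 3.37. Without LP CD103+ replicate 3 the CD103+ value of Cd14 was -1.90. Hsp90b1, a chaperone needed for the folding of most TLRs, was lower in LN CD103+ (152 against 848 CPM, -2.48) and double-positive DCs (-1.56), and the scavenger receptor gene Cd36 was lower in LN CD103+ (-1.64) but higher in LN double-positive DCs (1.65). Unc93b1, the chaperone of the endosomal receptors, was lower in LN than in LP CD103+ DCs (578 against 1920 CPM, log2 -1.73, SE 0.11, adjusted p = 6.7e-10) and was not called in CD11b+ (875 against 1392 CPM) or double-positive DCs (1005 against 1585 CPM). With DESeq2 size factors the CD11b+ split of the list was 1 and 2.

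Genes of endosomal TLR traffic and processing were called higher and lower in the LN at 1 and 1 of 9 in CD11b+, 3 and 1 in CD103+ and 2 and 1 in double-positive DCs, beside the same 10.3% and 4.93%, 19.8% and 15.1%, and 18.6% and 13.6% of all genes, with medians of -0.16, 0.23 and 0.19. With total counts these were 1 and 0, 3 and 2, and 2 and 2. Rab7b, a small GTPase of late endosomes, was lower in LN CD103+ DCs (33.3 against 694 CPM, log2 -4.38, SE 0.17) and higher in LN CD11b+ (1.30) and double-positive DCs (1.94). Of the protease genes, Lgmn was higher by 4.78 and Ctsb by 1.85 log2 units in LN CD103+ DCs, where Ctsl was not called (-0.23, adjusted p = 0.32). Lgmn also averaged 443 CPM in LN against 157 CPM in LP double-positive DCs, beside 122.4 against 116.5 CPM in CD11b+ DCs. Ctsl was lower in CD11b+ (-1.09) and double-positive DCs (-1.60), and its CD11b+ call was lost without LP CD11b+ replicate 3 (-0.76), with total counts (-0.96) and when only these libraries were fitted (adjusted p = 0.010).

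Signalling genes are given beside the same shares of all genes, 10.3% higher and 4.93% lower in CD11b+, 19.8% and 15.1% in CD103+ and 18.6% and 13.6% in double-positive DCs. Of the 6 adaptor genes, 0 were called in CD11b+ DCs by edgeR or DESeq2, although 1 was higher and 2 were lower at an unadjusted p under 0.05. In LN CD103+ DCs 3 were lower (Pik3ap1 by 3.03, Sarm1 by 2.6 and Tirap by 1.09 log2 units) and 0 higher, with 2 higher at an unadjusted p under 0.05 and 1 called higher by DESeq2. Single libraries decided part of this, since the Sarm1 call was lost without LN CD103+ replicate 2 (adjusted p = 0.010) or LP CD103+ replicate 2 (0.011), its value was -3.5 without LN CD103+ replicate 1, and Tirap was -0.98 and not called without LN CD103+ replicate 3. In LN double-positive DCs 1 was higher and 2 were lower, or 0 and 2 with total counts, and with DESeq2 size factors the CD103+ split was 1 and 3. The medians were 0.11, -0.92 and -0.34. Pik3ap1 averaged 29.5 CPM in LN against 134 CPM in LP double-positive DCs, beside 114 against 117 CPM in CD11b+ DCs. Myd88 was lower in LN double-positive DCs (87.6 against 243 CPM, log2 -1.47) and not called in CD11b+ (130 against 197 CPM) or CD103+ DCs (87.4 against 147 CPM), and Ticam1, which encodes TRIF, was called higher just past the fold limit in double-positive DCs (27.6 against 13.8 CPM, log2 1.00). That Ticam1 call was lost with total counts (0.83) and without most single libraries (0.97 to 1.00). Kinases and ubiquitin ligases were called higher and lower at 3 and 1 of 14 in CD11b+, 5 and 1 in CD103+ and 4 and 1 in double-positive DCs, with medians of 0.09, 0.45 and 0.42, and at 3 and 0 in CD11b+ DCs with total counts. Ikbke, a kinase that activates IRF3, was higher by 2.10, 6.02 and 3.20 and Traf3, on the same branch of signalling, by 1.06, 2.68 and 2.29 in the 3 subsets. The CD103+ value of Ikbke rests on 1, 20 and 3 counts in LP and was 7.5 without LP CD103+ replicate 2, and the CD11b+ value of Traf3 was 0.93 and not called without LN CD11b+ replicate 2. Traf6, which acts downstream of MyD88, was higher by 1.58 in CD103+ DCs. Between LN and LP it averaged 147.5 against 52.1 CPM in double-positive and 61.3 against 49.0 CPM in CD11b+ DCs. Peli1 was higher by 1.18 in CD11b+ and 1.45 in CD103+ DCs. Its averages in LN and LP double-positive DCs were 382 and 82.6 CPM. Of the 5 interferon regulatory factors, 2 and 0, 2 and 1 and 3 and 0 were called higher and lower by edgeR, and DESeq2 called 0 lower in CD11b+ and double-positive DCs, where 1 and 0 were lower at an unadjusted p under 0.05. The medians were 0.41, 0.16 and 1.68, with Irf7 higher in every subset (2.25, 1.13 and 2.25) and Irf8 higher in CD11b+ (1.43) and double-positive (3.04) but lower in CD103+ DCs (-1.53). Irf1 was higher by 2.80 in CD103+ DCs (1620 against 232 CPM) and averaged 1101 against 344 CPM in double-positive DCs. It was not called in CD11b+ DCs (0.41, edgeR adjusted p = 0.013). With total counts the CD103+ split of these factors was 1 and 1, Irf7 being at 0.91. Of the 13 negative regulators, 2 and 1, 8 and 1 and 6 and 2 were called higher and lower, with medians of 0.37, 1.5 and 0.5, and the double-positive split was 3 and 2 with total counts. Irak3, which restrains IRAK signalling, was higher by 4.09 and Tnfaip3, which encodes A20, by 3.74 in CD103+ DCs. The CD103+ value of Irak3 rests on 0, 27 and 1 counts in LP and was 7.47 without LP CD103+ replicate 2, where the fitted value depends on the prior count. Irak3 was also called higher in double-positive DCs (2.08), but not without replicate 1 or 3 of either double-positive group. Tnfaip3 was called just past the fold limit in CD11b+ (1.03) and double-positive DCs (1.01), and both calls were lost in several settings. Socs1, a cytokine and TLR signalling inhibitor, was higher by 2.5 in CD11b+ and 2.82 in double-positive DCs, and Nrros was lower by 2.49 in CD103+ and 3.10 in double-positive DCs.

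**Figure D5:**
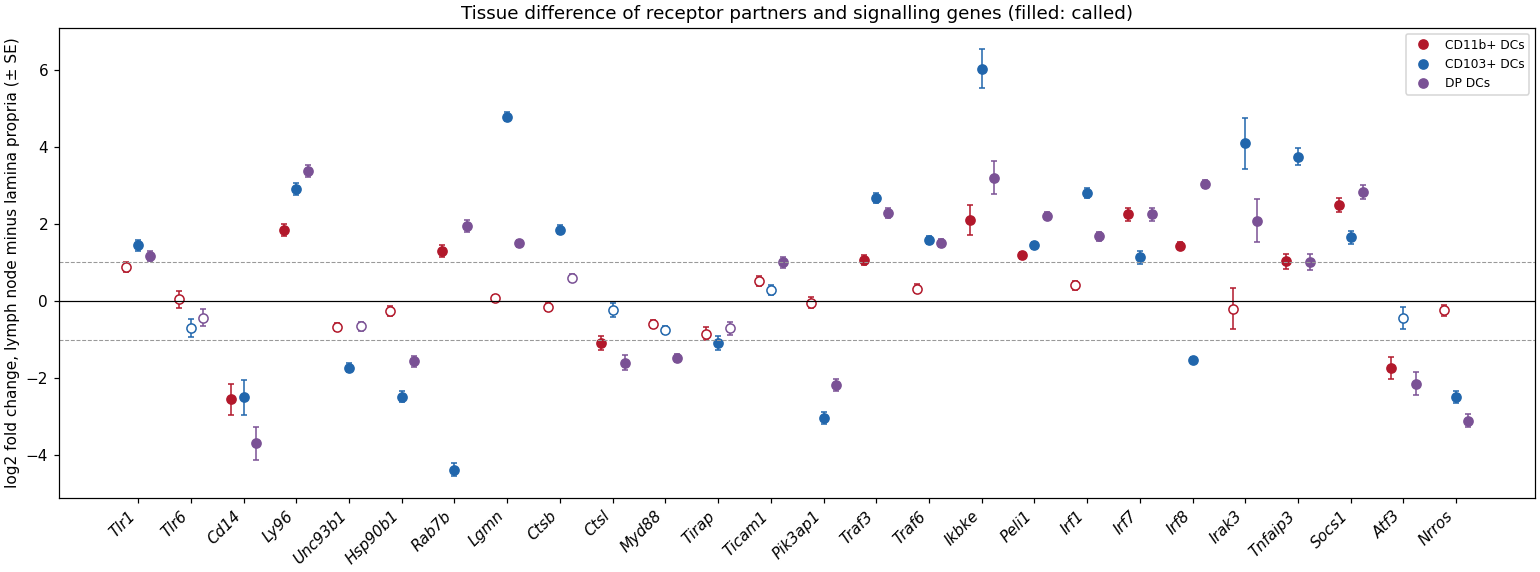
Log2 fold change (LN minus LP) with SE of 26 partner and signalling genes of the receptors in CD11b+, CD103+ and double-positive (DP) DCs, with filled symbols for called values. Cd14 lies below and Ly96 above 0 in all 3 subsets, and Rab7b and Irf8 are lower in CD103+ DCs and higher in both other subsets.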

How the data were processed

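RNA-seq was done on 18 libraries, 3 in each of 6 groups taken from the labels. The authors deposited raw read counts per Ensembl gene, without normalization. The submitters' processing notes name FastQC 0.11.7, STAR 2.6 and GRCm38, and other steps for these libraries are not given. For DCs of the small intestinal lamina propria and the lymph, rather than these libraries, the methods give a gate on live CD45+ CD64- MHCII high CD11c+ cells. They also give SMART-seq amplification, unique alignments and counting that ignored strand. Whether these libraries were handled likewise is not stated, so reads of overlapping genes may not be separated.

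Counts were tested with edgeR 4.0.16 in R 4.3.3 (quasi-likelihood test, TMM scaling, filterByExpr, all libraries in 1 fit with a mean per group), with Benjamini-Hochberg adjustment over 17074 genes. Calls needed an adjusted p under 0.01 and a fold change over 2. Total counts of 23574292 to 46901985 make 3 counts equal to 0.0645 to 0.143 CPM. Replicates differed beyond sampling noise (chi-square per gene 14.9 to 64.9). The script was tested on simulated data.

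Deviations of same-numbered libraries correlated at 0.123 to 0.281 within LP (9 of 9 pairs over 0.1), and those of differently numbered ones at -0.288 to 0.085. Within LN the same ranges were 0.011 to 0.169 and -0.094 to 0.035, and between tissues -0.119 to 0.072 and -0.097 to 0.098. The ranges were apart in LP and overlapped in part within LN. Whether the numbers pair libraries of the LN, or of LP with LN, was not tested. The receptors and the lists were chosen with earlier results of these data known. All 10 receptors were named, with the 3 largest called changes of each list, fixed partner genes, and the 2 most alike genes per receptor at 5 CPM or more. Alternatives were DESeq2 1.42.0, other scalings and filters, an adjusted p under 0.05, only the libraries compared, replicate blocks and each library left out. Hgs, with 2 identifiers, was left out. No table of proteins was used, and promoter windows came from RefSeq.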

Additional observations from a re-analysis of the deposited data

Results flagged for a closer look

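For 4 of the 10 receptors the difference between LN and LP depended on the DC subset by the edgeR F test over both interaction terms. The adjusted p was 2.1e-12 for Tlr3, 1.7e-09 for Tlr11, 2.2e-09 for Tlr12 and 7.7e-06 for Tlr2. All 3 LN CD103+ libraries lay below all 3 LP CD103+ libraries for Tlr3, Tlr11 and Tlr12 and above them for Tlr2. Tlr12 was called in opposite directions, lower in LN CD103+ DCs (log2 -3.74, SE 0.19) and higher in LN double-positive DCs (1.10, SE 0.18). The latter call was lost with total counts (0.93) and without LP double-positive replicate 3 (0.96). The test called 31.5% of all genes.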

How the results depend on the processing

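Of 2396 log2 fold changes of the receptors under an alternative, 2339 kept their side of the threshold, 24 lost a call and 33 gained one. None of the called values reversed, and 47 of the 2339, without a call in either setting, changed sign. Of the counts of called receptors 263 stayed within 1.5 times their value and 3 did not, each without 1 library. Without LP CD11b+ replicate 3, LN against LP called 1 receptor in CD11b+ DCs instead of 2. Without LP double-positive replicate 3 it called 2 in double-positive DCs instead of 4, and without LN double-positive replicate 3, LN double-positive against CD103+ DCs gave 2 instead of 4. With each library left out in turn, LN against LP called 1 to 3 receptors in CD11b+, 6 to 7 in CD103+ and 2 to 4 in double-positive DCs. In LP, CD103+ against CD11b+ DCs gave 7 to 8, double-positive against CD11b+ DCs 2 to 2 and double-positive against CD103+ DCs 6 to 6. In the LN the same comparisons gave 6 to 7, 3 to 6 and 2 to 4, and 4 to 4 receptors depended on the subset. The LN double-positive against CD11b+ count was 6 with DESeq2, with an adjusted p under 0.05 and with either other filter, where 4 were called. The cause was not tested.

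With the replicate number as a block over all libraries, LN against LP called 2, 7 and 4 receptors in CD11b+, CD103+ and double-positive DCs, Tlr8 in CD103+ DCs being added (log2 -3.95, adjusted p = 0.0055). With the block within each tissue, LN double-positive against CD11b+ DCs gave 5 and the other comparisons of subsets kept their counts, and the count of receptors that depended on the subset was 4 in both. Levels moved by over 1 SD in 9 of 60 cases with total counts and in 9 of 60 with the longest transcript. Depth limited Tlr4, Tlr5, Tlr7 and Tlr8 in CD103+ DCs, where libraries held 0 to 62 counts.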
